A study of Rattus norvegicus with 24 samples.

Results

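Astrocyte marker genes were followed in the dorsal striatum of rats that had self-administered methamphetamine (METH, a psychostimulant that releases dopamine). The genes were taken by name, as all probes whose symbol is Gfap, Aldoc, Ndrg2, Aqp4, Glul, S100b, Slc7a10 or Gja1. Of these 8 genes, 7 had an annotated probe, 1 probe each, and all 7 entered the tests, among 10354 tested probes. No probe annotated as Glul, which encodes glutamine synthetase, was used here.

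Each of 24 samples was hybridized to 1 Illumina RatRef-12 array, and 12 arrays share a glass slide. All animals were male Sprague-Dawley rats. METH rats took 0.1 mg/kg per intravenous injection in 15 h sessions on 8 days, and yoked saline rats were the controls. The groups were 6 METH samples taken 2 h after the last session and 6 saline samples on slide 1, and 6 METH samples taken 24 h after it and 6 saline samples on slides 2 and 3, with 3 of each on each slide. Ages are not in the labels, nor is the time at which saline rats were killed. Slides were read from the chip numbers in the sample titles. Nothing in the labels pairs samples, and replicate numbers follow the order of deposit. Levels are normalized log2 signals, which cannot be compared between probes, and the fold of a dim gene is understated because a constant of 16 is added to the background-corrected signal.

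Astrocytes take up glutamate and potassium around synapses, supply neurons with metabolic substrate, and line blood vessels with end-feet. They are joined to each other by gap junctions. Gfap, the intermediate filament protein of astrocytes, is the usual measure of reactive gliosis, in which astrocytes enlarge after injury, including after toxic doses of METH. Striatal astrocytes at rest are known for low Gfap compared with those of white matter or hippocampus, so the other markers, which concern metabolism, transport and coupling, cover them from a different side. In tissue RNA, fewer astrocytes and less RNA per astrocyte cannot be told apart.

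The start regions of 3 members are shown because these genes frame the results below: Aldoc and Slc7a10 lay on opposite sides of saline at 24 h, and Gja1 is the measured member whose window holds a searched motif. The sequences are from RefSeq, build GRCr8, cover 250 bases before to 50 after the annotated start, and run 5′ to 3′ on the gene's strand. The single capital marks the annotated start, and the runs of capitals in Gja1 mark the short CRE core, which reads CGTCA on this strand.
Aldoc, chr10:63715294-63715593, plus strand: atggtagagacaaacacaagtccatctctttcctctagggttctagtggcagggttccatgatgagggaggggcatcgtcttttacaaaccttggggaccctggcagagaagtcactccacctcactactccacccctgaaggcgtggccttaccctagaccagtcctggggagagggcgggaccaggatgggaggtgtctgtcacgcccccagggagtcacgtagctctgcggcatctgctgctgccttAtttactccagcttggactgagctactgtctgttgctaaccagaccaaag
Slc7a10, chr1:96965872-96966171, plus strand: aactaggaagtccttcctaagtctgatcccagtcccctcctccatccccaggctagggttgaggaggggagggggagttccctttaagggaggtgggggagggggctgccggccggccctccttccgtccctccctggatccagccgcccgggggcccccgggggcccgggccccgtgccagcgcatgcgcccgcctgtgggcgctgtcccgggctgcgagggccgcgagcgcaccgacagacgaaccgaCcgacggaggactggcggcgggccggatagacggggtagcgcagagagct
Gja1, chr20:36302314-36302613, plus strand: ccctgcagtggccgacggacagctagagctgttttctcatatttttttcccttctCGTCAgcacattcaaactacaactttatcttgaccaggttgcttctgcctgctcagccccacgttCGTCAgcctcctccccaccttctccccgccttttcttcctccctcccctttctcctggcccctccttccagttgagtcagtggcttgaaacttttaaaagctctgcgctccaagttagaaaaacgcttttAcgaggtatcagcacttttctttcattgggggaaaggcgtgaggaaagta

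The table holds 11 windows for the 8 genes, since some have 2 annotated starts. The cyclic AMP response element (CRE, TGACGTCA), the site bound by CREB, the factor named in the series title, was found in 0 of 11, against 1.83% of all 33469 windows in the table. Its short core, TGACG on either strand, which also lies inside the full element, was found in 2 of 11, those of Gja1 and Glul, against 21.2% of all windows. In Gja1 the matches begin 195 and 130 bases before the start. The STAT motif TTCNNNGAA (8.87% of all windows), the full NFI motif (0.0418%) and the glucocorticoid receptor core TGTTCT (20.7%), each searched on both strands, were found in 0 of 11.

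The 7 measured members were detected on all 24 arrays. The tissue label was checked against markers of striatal projection neurons: all 9 that have a probe, Drd1, Drd2 and Ppp1r1b among them, were detected on all 24 arrays too. Detected probes numbered 8208 to 9428 on the arrays of slide 1 (median 8865) and 9375 to 10306 on the other slides (median 9706.5), so the ranges overlapped slightly. The median residual SD of all tested probes was 0.25 on slide 1 and 0.175 on slides 2 and 3 (log2), and the number of arrays limits the precision. A single fit shares its spread estimate for each probe over all slides, so a member has the same SE at 2 h and at 24 h. For a typical probe that estimate is too small for slide 1 and too large for slides 2 and 3.

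None of the 7 members passed the test at either time. Threshold and test were an adjusted p under 0.05 from limma with Benjamini-Hochberg adjustment over all tested probes. At 2 h 0 of 7 passed (background 0.0676% of tested probes), at 24 h 0 of 7 (0.0483%), and 0 of 7 for the difference between the times (0% of tested probes). At an unadjusted p under 0.05 the counts were 1 of 7 at 2 h (Gfap, higher; background 9.22%), 4 of 7 at 24 h (Aldoc, Ndrg2 and S100b higher, Slc7a10 lower; background 1.94%) and 1 of 7 for the difference (Slc7a10; background 4.86%). The median log2 difference between METH and saline was 0.08 over the members at 2 h and 0.13 at 24 h, beside -0.004 and -0.002 over all tested probes. It hides both signs: 5 of 7 were higher and 2, Aqp4 and Gja1, lower at 2 h (all 7 higher after median scaling or in the deposited log2 values), and 4 were higher and 3 lower at 24 h.

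**Figure D1:**
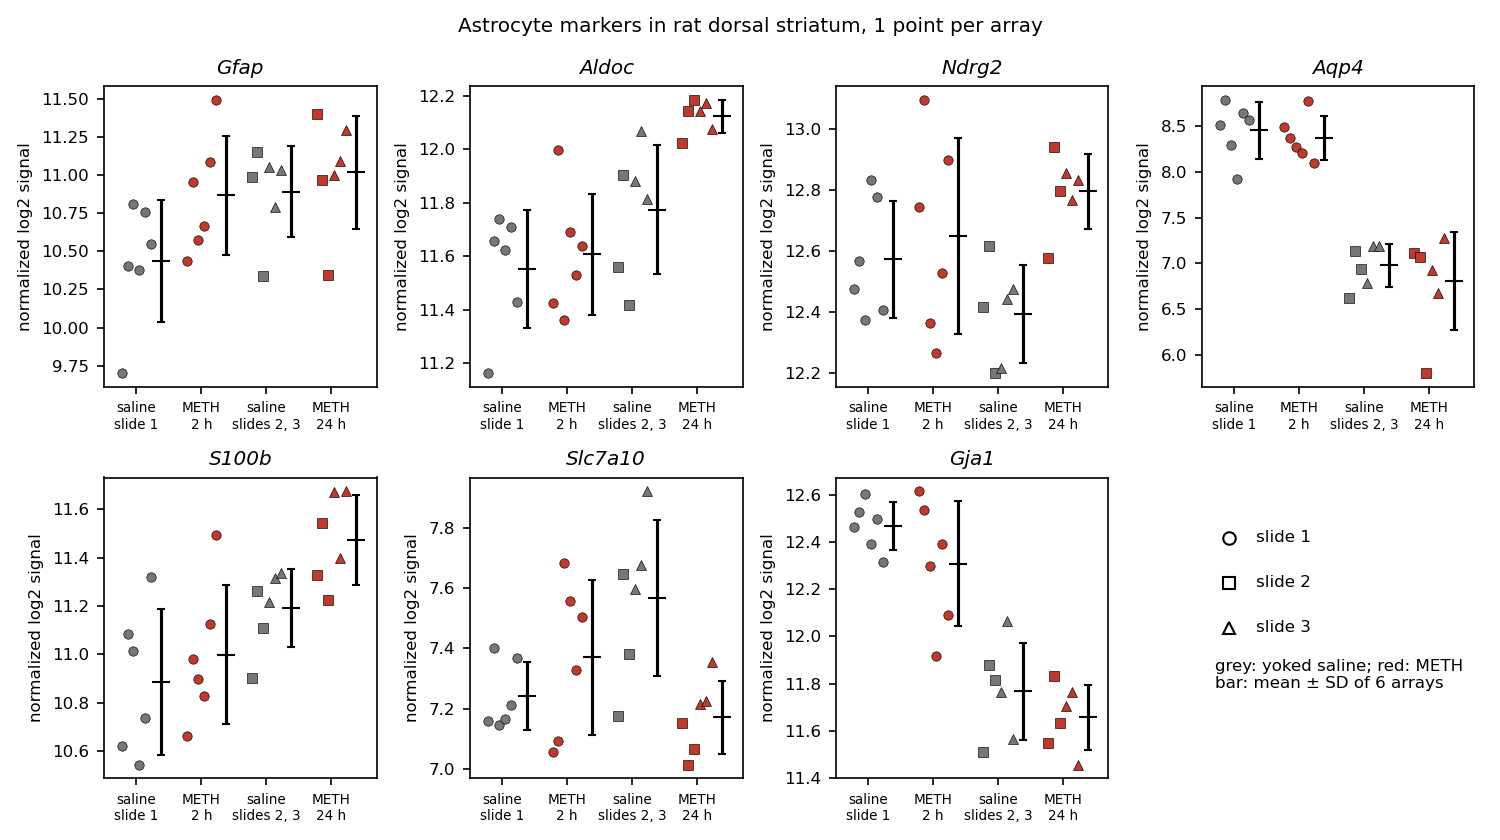
Normalized log2 signal (vertical axis, own scale for each gene) of the 7 measured astrocyte markers, with 1 point per array in each of the 4 groups. Grey points are yoked saline, red points METH, circles slide 1, squares slide 2 and triangles slide 3, and the bars give mean ± SD of 6 arrays. The METH arrays at 24 h sit high for Aldoc and Ndrg2 and low for Slc7a10, while Aqp4 and Gja1 differ mainly between the slide sets.

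Gfap was the member farthest from saline at 2 h. On slide 1 the saline samples ran from 9.70 through a median of 10.48 to 10.81, and the METH samples at 2 h from 10.44 through 10.81 to 11.49. The groups overlapped, with 3 of 6 METH samples above every saline sample. The log2 difference was 0.43 (SE 0.193, 95% interval 0.04 to 0.83, n = 6 each; limma adjusted p = 0.472), a fold of 1.35. The lowest saline sample, replicate 1, weighs on this value: without it the difference was 0.29 (limma adjusted p = 0.533).

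Gfap at 24 h lay close to saline. Saline samples on slides 2 and 3 ran from 10.33 through 11.01 to 11.15 and METH samples from 10.35 through 11.05 to 11.40, so the groups covered nearly the same range, with 2 of 6 METH samples above every saline sample. The difference was 0.13 (SE 0.193, interval -0.27 to 0.52; limma adjusted p = 1), with 0.08 within slide 2 and 0.17 within slide 3. The interval includes folds from 0.83 to 1.44. Gfap varied more between arrays than most tested probes: its residual SD exceeded that of 90.8% of tested probes on slide 1 and of 93.1% on slides 2 and 3. With 1 array per sample, animal and technical variation cannot be told apart in it.

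Neuronal markers are given beside the 2 h values. Of 9 tested projection neuron genes 0 passed the limma threshold, 7 were lower and 2 higher, with a median of -0.27, and 6 had an unadjusted p under 0.05 (5 lower, 1 higher), where 9.22% of all tested probes did. Their mean log2 level ran from 11.15 to 11.38 in saline and from 10.88 to 11.23 in METH samples of slide 1. Of 7 listed cortical excitatory neuron markers 4 were tested and 0 passed, 4 of 4 were higher with a median of 0.97, and 3 had an unadjusted p under 0.05. Their mean log2 level ran from 7.30 to 8.48 in saline and from 7.59 to 9.12 in METH samples of slide 1. Among these genes Nrgn was nearly unchanged, at 0.004. Slc17a7 and Neurod6 were near background, each detected on 2 of 6 saline arrays of slide 1, and on 5 and 6 METH arrays. Bhlhe22, detected on all 24 arrays, stood at 1.10 (interval 0.44 to 1.77, limma adjusted p = 0.203). The part of either list in the Gfap value was not tested.

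Aldoc encodes aldolase C, a glycolytic enzyme that in forebrain is concentrated in astrocytes. At 24 h, saline samples ran from 11.42 through 11.85 to 12.07 and METH samples from 12.02 through 12.14 to 12.19. The METH samples lay close together near the top of the saline range, and 5 of 6 exceeded every saline sample. The difference was 0.35 (SE 0.117, interval 0.11 to 0.59, n = 6 each; limma adjusted p = 1), a fold of 1.27. Within slide 2 it was 0.49 and within slide 3 it was 0.21, and the 3 METH samples lay above the 3 saline samples on each slide.

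At 2 h Aldoc showed no such separation. Saline samples ran from 11.16 through 11.64 to 11.74 and METH samples from 11.36 through 11.58 to 12.00. The groups overlapped, with 1 of 6 METH samples above every saline sample. The difference was 0.05 (SE 0.117, interval -0.19 to 0.29; limma adjusted p = 0.919), and its sign turned without saline replicate 1 or METH replicate 2, at -0.02 each time.

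Ndrg2, a member of the NDRG family whose brain expression is mainly astrocytic, followed Aldoc. At 24 h the saline samples ran from 12.20 through 12.43 to 12.62 and the METH samples from 12.58 through 12.81 to 12.94. Only the lowest METH sample lay below the highest saline sample, and 5 of 6 METH samples lay above every saline sample. The difference was 0.40 (SE 0.126, interval 0.14 to 0.66, n = 6 each; limma adjusted p = 1), a fold of 1.32, with 0.36 within slide 2 and 0.44 within slide 3. On slide 3 the groups did not overlap, and on slide 2 they did.

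At 2 h Ndrg2 spread widely among METH samples. Saline samples ran from 12.37 through 12.52 to 12.83, and METH samples from 12.27 through 12.64 to 13.10, so METH samples lay on both sides of the saline range, 2 above it and 2 below it. The difference was 0.08 (SE 0.126, interval -0.18 to 0.34; limma adjusted p = 0.888), and -0.01 without METH replicate 2.

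S100b encodes a small calcium-binding protein that astrocytes make and release, and some oligodendrocytes make it as well. At 24 h saline samples ran from 10.90 through 11.24 to 11.34 and METH samples from 11.22 through 11.47 to 11.68, with 4 of 6 METH samples above every saline sample. The difference was 0.28 (SE 0.133, interval 0.01 to 0.56; limma adjusted p = 1), nearly equal within the slides at 0.27 and 0.29. Of 11 tested oligodendrocyte genes, 4 were higher and 7 lower at 24 h, with a median of -0.11 and 0 past the limma threshold; their part in the S100b value was not tested.

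At 2 h the S100b groups overlapped over most of their range. Saline samples ran from 10.54 through 10.88 to 11.32 and METH samples from 10.66 through 10.94 to 11.50. The difference was 0.11 (SE 0.133, interval -0.16 to 0.39; limma adjusted p = 0.83).

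Slc7a10 encodes Asc-1, an exchanger of D-serine, glycine and other small neutral amino acids that has been described in astrocytes and in neurons. At 24 h it was the member of lowest p and lay below saline, opposite to Aldoc, Ndrg2 and S100b. Saline samples ran from 7.18 through 7.62 to 7.92 and METH samples from 7.01 through 7.18 to 7.35. All 6 METH samples lay below the saline median and 3 of 6 lay below every saline sample. The difference was -0.40 (SE 0.11, interval -0.62 to -0.17, n = 6 each; limma adjusted p = 1), or 0.759 of the saline signal, with -0.33 within slide 2 and -0.47 within slide 3. On each slide the 3 METH samples lay below the 3 saline samples.

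At 2 h Slc7a10 lay on the other side. Saline samples were tightly grouped, from 7.15 through 7.19 to 7.40, and METH samples ran from 7.06 through 7.42 to 7.68, with 3 of 6 above every saline sample and 2 of 6 below every one. The difference was 0.13 (SE 0.11, interval -0.10 to 0.35; limma adjusted p = 0.754). The effect at 24 h minus that at 2 h was -0.53 (SE 0.155, interval -0.84 to -0.21; limma adjusted p = 0.732). Time and slide cannot be told apart in this difference.

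Aqp4 encodes the water channel of astrocyte end-feet. On slide 1 saline samples ran from 7.92 through 8.54 to 8.79 and METH samples at 2 h from 8.10 through 8.32 to 8.77, with METH inside the saline range. The difference was -0.08 (SE 0.184, interval -0.46 to 0.29; limma adjusted p = 0.918), and it was 0.13 with median scaling, 0.14 in the deposited log2 values and 0.11 after these were centred. At 24 h saline samples ran from 6.63 through 7.04 to 7.19 and METH samples from 5.80 through 7.00 to 7.27. The lowest METH sample, replicate 3 on slide 2, stood apart from the other 5. The difference was -0.17 (SE 0.184, interval -0.55 to 0.21; limma adjusted p = 1), with -0.24 within slide 2 and -0.10 within slide 3, and it was 0.03 without replicate 3.

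Gja1 encodes a connexin, the main gap junction protein of astrocytes. On slide 1 saline samples ran from 12.32 through 12.48 to 12.60 and METH samples at 2 h from 11.92 through 12.35 to 12.62. METH samples spread beyond the narrow saline range at both ends, 1 above it and 3 below it. The difference was -0.16 (SE 0.116, interval -0.40 to 0.08; limma adjusted p = 0.704), and it was 0.07 with median scaling, 0.07 in the deposited log2 values and 0.03 after these were centred. At 24 h saline samples ran from 11.51 through 11.79 to 12.06 and METH samples from 11.46 through 11.67 to 11.83, with 1 of 6 METH samples below every saline sample and none above every one. The difference was -0.11 (SE 0.116, interval -0.35 to 0.13; limma adjusted p = 1), with -0.06 within slide 2 and -0.16 within slide 3.

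In those 3 alternative scalings the median of all tested probes at 2 h itself lay at 0.15, 0.20 and 0.17. Relative to it, Aqp4 stood at -0.02, -0.06 and -0.06 and Gja1 at -0.08, -0.13 and -0.13, so both remained below the typical probe. Gfap stood at 0.52, 0.47 and 0.47 relative to it.

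**Figure D2:**
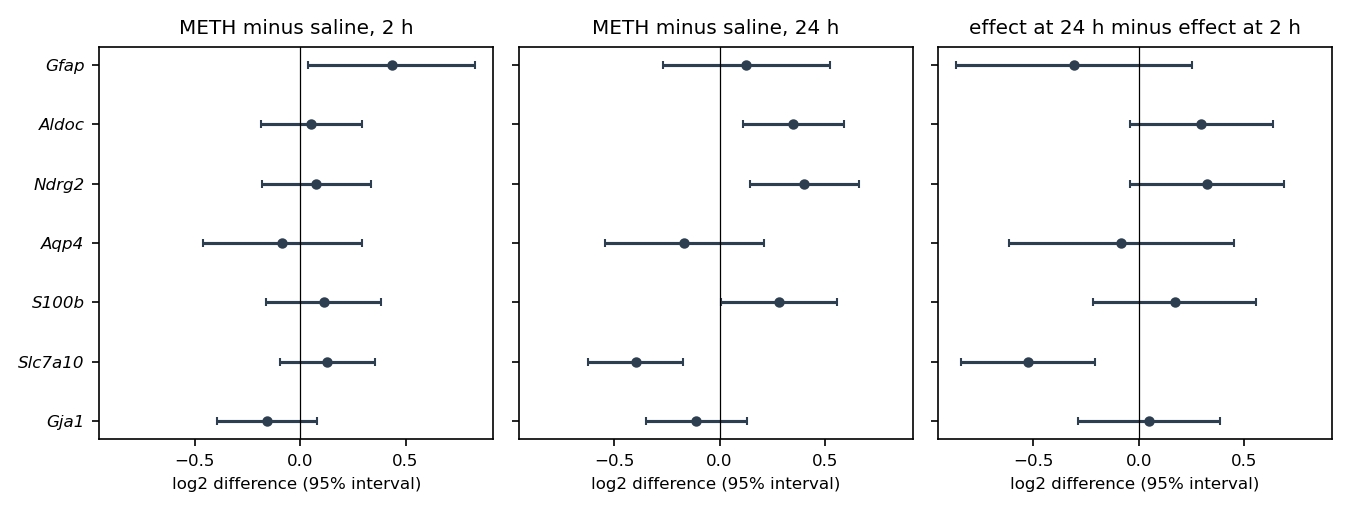
Log2 difference between METH and saline for each of the 7 measured members at 2 h (left) and 24 h (middle), and the effect at 24 h minus that at 2 h (right). Points are limma estimates and bars 95% intervals. At 24 h the intervals of Aldoc (0.11 to 0.59), Ndrg2 (0.14 to 0.66) and S100b (0.01 to 0.56) lie above 0 and that of Slc7a10 (-0.62 to -0.17) below it; these intervals are not adjusted for the number of probes.

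No member separated METH from saline across all 12 arrays of a comparison. The count of members without overlap was 0 of 7 at 2 h, against 0.396% of tested probes, and 0 of 7 at 24 h, against 0.174%. Within slides 2 and 3 taken separately, 2 of 7 members, Aldoc and Slc7a10, had METH and saline apart in the same direction on both slides, against 0.512% of tested probes. All 7 members had the same sign of effect within slide 2 as within slide 3, as did 50.4% of tested probes.

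**Figure D3:**
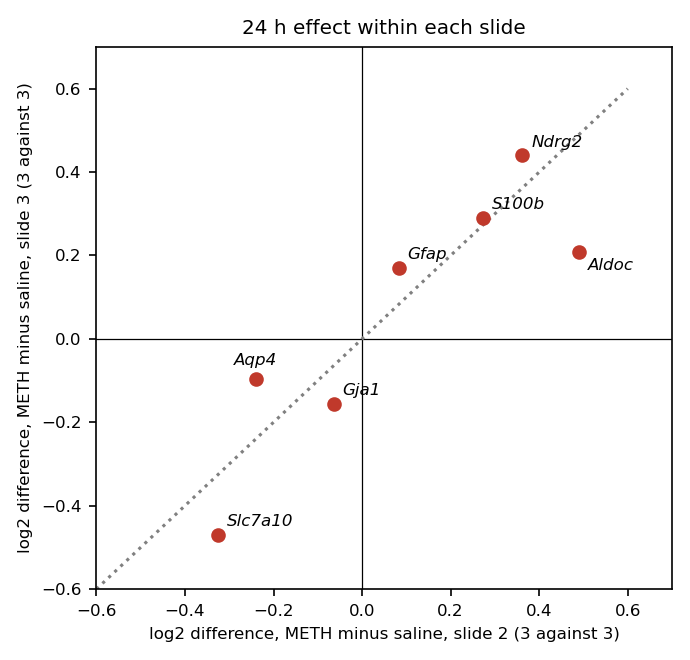
Effect at 24 h within slide 2 (horizontal) and slide 3 (vertical), each as the mean of 3 METH minus the mean of 3 saline arrays on the log2 scale. The dotted line marks equal effects, and all 7 genes fall in the quadrants of equal sign (50.4% of tested probes do), from Slc7a10 (-0.33 and -0.47) to Ndrg2 (0.36 and 0.44).

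The saline rats themselves differed between the slide sets. Mean Aqp4 was 1.47 lower on slides 2 and 3 than on slide 1 (difference -1.47, log2) and Gja1 0.70 lower (difference -0.70), whereas Gfap was higher by 0.46, Slc7a10 by 0.33, S100b by 0.31 and Aldoc by 0.22, and Ndrg2 had a difference of -0.18. Over all tested probes, 5% lay below -0.72 and 5% above 0.78. These shifts carry slide, animals and any difference in their time of death, which cannot be told apart, and were not tested.

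Members were compared for variation that neither treatment nor slide explains, by correlating their values after subtraction of the group and slide means. There were 21 pairs in each of the slide sets, 42 relations in all. The median of Pearson's r was 0.09 on slide 1, with 11 pairs above 0 and 10 below, and 0.27 on slides 2 and 3, with 18 above and 3 below. After Benjamini-Hochberg adjustment, 0 of 42 passed by Pearson or Spearman. The unadjusted permutation p of Pearson's r was under 0.05 for 2 pairs on slide 1 and 1 pair on slides 2 and 3. Besides the pairs below, Gfap and Aldoc had r = 0.628 on slide 1 (permutation p = 0.0422, adjusted p = 0.54) and 0.116 on slides 2 and 3. The r farthest from 0 on slide 1 was negative, -0.716 for Slc7a10 and Gja1 (permutation p = 0.0515, adjusted p = 0.54). Their rho was -0.72 (permutation p = 0.0358, adjusted p = 0.513), and on slides 2 and 3 their r was -0.056.

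Gfap and S100b had r = 0.692 on slide 1 (permutation p = 0.0172, adjusted p = 0.54; rho = 0.706, permutation p = 0.016, adjusted p = 0.513; n = 12 arrays), and 0.515 without the 2 arrays farthest from the median of Gfap. On slides 2 and 3 their r was 0.214. Aqp4 and S100b had r = 0.727 on slides 2 and 3 (permutation p = 0.0319, adjusted p = 0.54; rho = 0.727, permutation p = 0.0441, adjusted p = 0.513; n = 12 arrays) and 0.187 on slide 1. Without the 2 arrays farthest from the median of Aqp4, the value on slides 2 and 3 was 0.902. Aldoc and Ndrg2, which stood higher at 24 h as S100b did, had r = 0.479 on slide 1 (permutation p = 0.142, adjusted p = 0.597; rho = 0.301, permutation p = 0.364, adjusted p = 0.924; n = 12 arrays) and 0.683 on slides 2 and 3 (permutation p = 0.0954, adjusted p = 0.597; rho = 0.566, permutation p = 0.162, adjusted p = 0.743; n = 12 arrays). Without the 2 arrays farthest from the median of Aldoc these were 0.234 and 0.342, so the relation rests on those arrays. Taking for each pair the lower r of the slide sets, Aldoc and Ndrg2 were each other's closest member, and so were S100b and Slc7a10 (0.398 on slide 1 and 0.545 on slides 2 and 3).

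**Figure D4:**
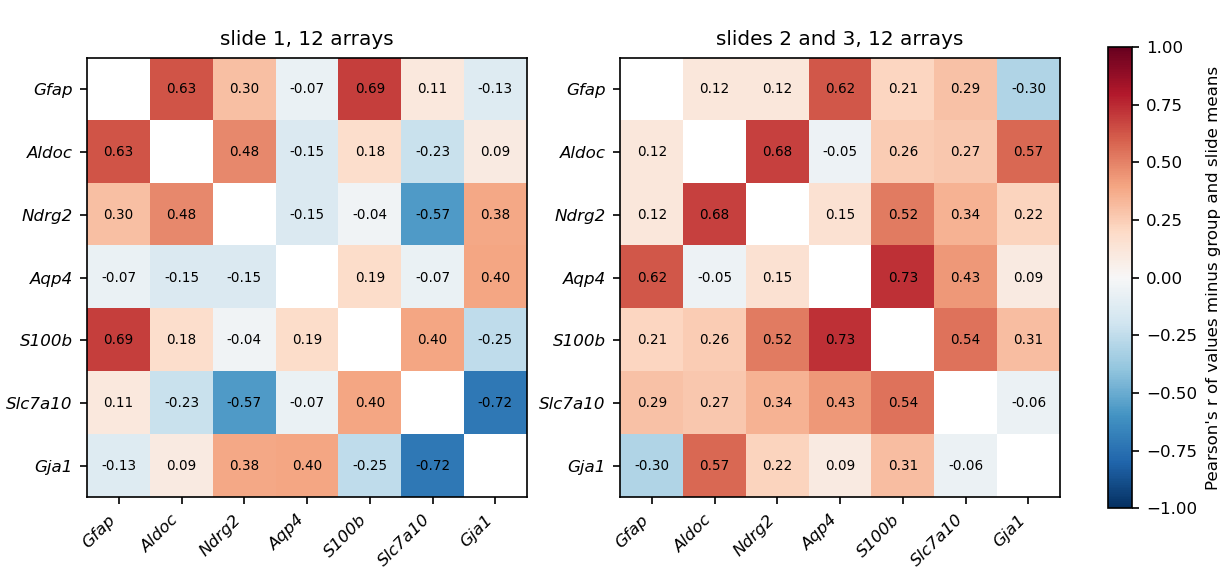
Pearson's r between members over 12 arrays of slide 1 (left) and 12 arrays of slides 2 and 3 (right), after subtraction of group and slide means. Red cells are above 0 and blue below, and values run from -0.72 (Slc7a10 with Gja1, slide 1) to 0.73 (Aqp4 with S100b, slides 2 and 3).

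The genes whose pattern was most like the mean of the 7 standardized members were ranked among 7353 other named genes by the lower of their r on slide 1 and on slides 2 and 3 (12 arrays each). The leading 8 were Itgb1, Gpr37l1, S1pr5, Zmynd10, Tspan14, St3gal4, Olfml2b and Lcat. Itgb1, which encodes the integrin beta-1 subunit, had r of 0.884 and 0.927. Gpr37l1, a receptor gene from the list of homeostatic astrocyte genes, had 0.799 and 0.78. It was the only gene of the 8 on the homeostatic or the reactive astrocyte list. S1pr5 (0.772 and 0.791) and Zmynd10 (0.809 and 0.754), on neither list, had similar values. The lowest of the 8, Lcat, had 0.754 and 0.727. These are the top of a long ranking and carry no test. Of 36 tested homeostatic genes, 17 (47.2%) had r above 0 in both slide sets, as did 27.9% of all 7353. The homeostatic median r was 0.29 on slide 1 and 0.20 on slides 2 and 3, beside 0.005 and -0.006 over all ranked genes. This difference was not tested. The mean itself stood for the members unevenly: on slide 1 it had r of 0.838 with Gfap and -0.004 with Slc7a10, and on slides 2 and 3 between 0.409 (Gja1) and 0.81 (S100b).

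Other homeostatic astrocyte genes, among them the glutamate transporters, gave no call. Of 50 listed, 41 had a probe and 36 were tested, and 0 rose and 0 fell by limma's adjusted p at either time or for the difference. At 2 h 23 of 36 were higher and 13 lower, with a median of 0.04. At 24 h 29 were higher and 7 lower, with a median of 0.10 beside -0.002 over all tested probes and a share of 49.4% of all probes above 0. An unadjusted p under 0.05 was reached by 3 of 36 at 2 h (2 higher, 1 lower), beside 9.22% of all tested probes, and by 2 of 36 at 24 h (both higher), beside 1.94%. Differences of single genes ran from -0.28 to 0.76 at 2 h and from -0.18 to 0.52 at 24 h. The glutamate transporter genes were named after their values were seen: Slc1a2 stood at 0.07 and 0.16 and Slc1a3 at -0.20 and -0.04 at these times, and at 24 h Slc1a3 had opposite signs within slide 2 (0.31) and slide 3 (-0.40).

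The homeostatic genes of lowest p at 2 h were Slco1c1, a transporter of thyroid hormone (-0.27, adjusted p = 0.452), Sparcl1, a secreted matrix protein (0.25, adjusted p = 0.456), and Slc39a12, a zinc transporter (0.76, adjusted p = 0.492), all by limma over all probes. At 24 h they were Cyp4f4 (0.41, interval 0.12 to 0.69), Acsbg1, an acyl-CoA synthetase (0.22, interval 0.03 to 0.42), and Sparc, a matrix protein (0.52, interval -0.01 to 1.06), each with a limma adjusted p of 1. For the difference between the times they were Phkg1, a subunit of phosphorylase kinase (0.37), Slco1c1 (0.33) and Slc39a12 (-0.78), each with a limma adjusted p of 0.989. Phkg1 was detected on only 14 of 24 arrays and Slc39a12 on 19. At 24 h Slc39a12 stood at -0.58 within slide 2 and 0.53 within slide 3.

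Reactive astrocyte genes are those that astrocytes raise after injury or inflammation. Of 40 listed, 34 had a probe and 17 were tested, and 0 rose and 0 fell in any of the 3 comparisons. At 2 h 9 were higher and 8 lower, with a median of 0.004. At 24 h 13 were higher and 4 lower, with a median of 0.09, beside -0.002 over all tested probes and 49.4% of all probes above 0. An unadjusted p under 0.05 was reached at 2 h by 1 higher and 1 lower gene of 17 (9.22% of all tested probes). At 24 h it was reached by 3 of 17, all higher (1.94% of all tested probes). The 24 h counts and median include genes, named below, that met the detection filter only through the METH arrays at 24 h. Lowest in p at 2 h were Tgm1 (-0.38, limma adjusted p = 0.166), Timp1, an inhibitor of metalloproteinases (0.31, adjusted p = 0.452), and Tm4sf1 (0.30, adjusted p = 0.587).

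At 24 h the reactive genes of lowest p were Lcn2, which encodes the secreted protein lipocalin-2, at 0.93 (SE 0.3, interval 0.31 to 1.55), the metallothionein gene Mt1 at 0.64 (SE 0.222, interval 0.19 to 1.10), and Timp1 at 0.32 (SE 0.133, interval 0.04 to 0.59), each with a limma adjusted p of 1. For each of these, 5 of 6 METH samples lay above the saline median. Lcn2 was close to background: detection reached 3 of 6 in the saline group, 5 of 6 in the METH group and 10 of 24 over all arrays, with a mean of 5.12 ± 0.353 in saline and 6.05 ± 1.01 in METH samples (SD, n = 6 each). Without the METH arrays at 24 h, Lcn2, Gbp2 and Spp1 would not have met the filter of 6 arrays. Each is counted among the genes higher at 24 h. Since that METH group admitted them to the tests, they give no support for a rise at 24 h. Gfap, the core gene of reactive gliosis, stood at 0.13 there. For the difference between the times the reactive genes of lowest p were Tgm1 (0.47, limma adjusted p = 0.75), Lcn2 (0.91, adjusted p = 0.989) and Mt1 (0.64, adjusted p = 0.989).

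**Figure D5:**
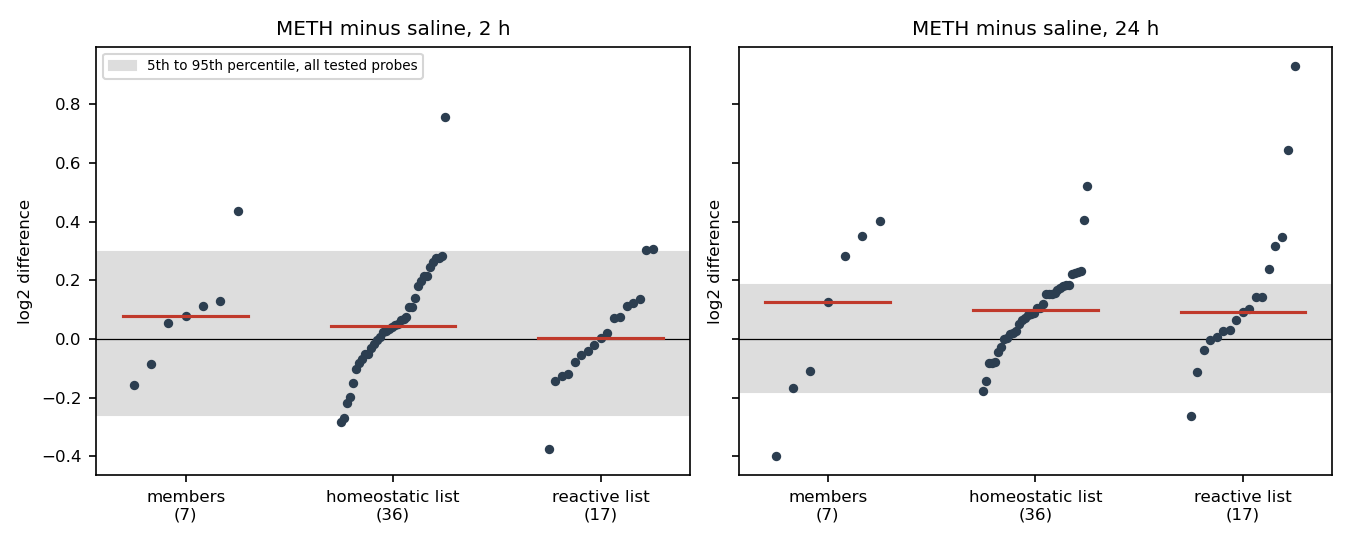
Log2 difference between METH and saline at 2 h (left) and 24 h (right) for the 7 measured members, 36 homeostatic and 17 reactive astrocyte genes. Each point is a gene, the red line the median of its list, and the grey band the 5th to 95th percentile of all tested probes, which spans -0.26 to 0.30 at 2 h and -0.18 to 0.18 at 24 h. At 24 h Aldoc, Ndrg2 and S100b lie above the band and Slc7a10 below it.

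Markers of other cells in the tissue were set beside the 24 h values. Of 9 tested microglia genes 0 passed the limma threshold, 8 were higher (49.4% of all tested probes were) and 4 had an unadjusted p under 0.05 (1.94% of all tested probes did), with a median of 0.35, and their mean level ran from 6.80 to 7.26 in saline and from 7.07 to 7.77 in METH samples. Of 4 tested red blood cell genes, 4 fell: the haemoglobin beta chain genes Hbb-b1 and Hbb and the alpha chain genes Hba-a3 and Hba-a1. Their log2 differences were -1.80, -1.75, -1.51 and -1.69 (limma adjusted p = 0.000926, 0.00155, 0.00155 and 0.00584). Probes for gene copies of the same chain may share signal. Of 9 projection neuron genes 7 were higher and 2 lower with a median of 0.08, and of 5 endothelial and pericyte genes 4 were higher and 1 lower with a median of 0.07. The latter median is the value of Tek, which met the detection filter only with the METH arrays at 24 h and gives no support for a rise. Of 8 markers of ependyma and choroid plexus, 6 had a probe and 2 of these were tested, Ttr and Dynlrb2, since Kl, Clic6, Folr1 and Kcne2 were below the detection filter. Their median was -0.73 at 2 h and -0.68 at 24 h, and 0 passed. Dynlrb2 also met the filter only with the METH arrays at 24 h. Ttr, which encodes transthyretin and was named after its values were seen, stood at -1.53 at 2 h (interval -3.85 to 0.78) and -1.33 at 24 h (interval -3.65 to 0.98), with -2.33 within slide 2 and -0.33 within slide 3. Whether any of these moved the astrocyte values was not tested.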

How the data were processed

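Probe intensity as deposited, non-normalized per the file headers, covers 22523 probes on 24 arrays. It had been background-subtracted, since 26.4% to 31.7% of an array's values lie below 0. The detection p-value deposited beside each intensity stands in another probe order (rank correlation with the intensity of its line -0.0136 to -0.00495), so sorted scores were assigned to sorted intensities, and 1 missing score was set to its array's median. The authors also deposited log2 values, which recomputation showed to be log2 intensity with a floor of 1, centred on the probe's median within slide 1 and, separately, within slides 2 and 3 together. They were used as an alternative. The software and its settings are not given in the sources used here.

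In R 4.3.3 with limma 3.58.1, neqc (normexp, offset 16, quantile normalization) was run on all arrays. Probes detected (p under 0.05) on 6 or more arrays entered lmFit and eBayes in a single model of 4 group means and slide 3 against slide 2, with Benjamini-Hochberg adjustment over 10354 probes. The fit was tested on simulated data. Contrasts set each METH group against saline on the same slides. Symbols come from the platform annotation, updated through a RefSeq table of GRCr8 that matched 13752 probes. Arrays were taken as separate animals; the labels do not say this of each array, and p-values measure only the spread between these samples.

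Members and gene lists were chosen with earlier results of these data known. Named genes are all members, the 3 genes of lowest p per wider list and comparison, the 8 genes most like the members' mean, and genes of other cell lists that passed. Some other genes, among them the tested cortical markers, are named outside this rule. Correlation p-values come from 100000 permutations of arrays within group and slide. Alternatives covered background, scaling, filter, slide term, weights, separate fits and leaving out each array.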

Additional observations from a re-analysis of the deposited data

How the results depend on the processing

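No member passed the limma threshold at either time or for the difference between the times under any of the alternatives run, and the lowest adjusted p among them was 0.238. At 24 h the lowest limma adjusted p under any alternative was 0.270 for Slc7a10, 0.304 for Ndrg2, 0.462 for Aldoc and 0.852 for S100b. Of 777 values of single members under alternatives, 755 kept their direction and 22 reversed. With median scaling, the deposited log2 values and these centred per array, the median difference of the members at 2 h was 0.33, 0.32 and 0.29, where the median of all tested probes was 0.15, 0.20 and 0.17. Under the same 3 settings Aqp4 at 2 h was 0.13, 0.14 and 0.11, Gja1 at 2 h 0.070, 0.065 and 0.034, and, for 24 h minus 2 h, S100b -0.10, -0.089 and -0.027 and Gja1 -0.19, -0.18 and -0.12. With array weights the differences between the times were 0.00024 for Aqp4 and -0.0023 for Gja1. The count of members with an unadjusted p under 0.05 at 2 h was 2 under median scaling or centring of the deposited values and 0 with array weights. At 24 h it was 2 under median scaling and 0 for the deposited values as they stand. The causes were not tested. With median scaling 1 correlated pair passed on slide 1, where the median r was 0.55.

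Leaving out each array in turn, the unadjusted counts ran from 0 to 1 at 2 h, 3 to 4 at 24 h and 1 to 3 for the difference. Any of 5 arrays left out took the count at 2 h to 0: saline replicates 1 and 4 and METH replicates 2, 5 and 6. For the difference it was 2 without saline replicate 1 or METH replicate 6 of slide 1, and 3 without METH replicate 2. The members' median ran from -0.012 to 0.10 at 2 h and from 0.021 to 0.26 at 24 h, the latter without METH replicate 3. Aldoc at 2 h ran from -0.024 to 0.10, Ndrg2 at 2 h from -0.012 to 0.15, Aqp4 at 24 h from -0.26 to 0.031, and for the difference between the times Aqp4 ran from -0.18 to 0.12, with 0.024 without saline replicate 4 of slide 1, and Gja1 from -0.030 to 0.11, with -0.0069 without saline replicate 1 of slides 2 and 3. No paired analysis was possible because the labels give no replicate or pair numbers. Signal over background limits Slc7a10 and, on slides 2 and 3, Aqp4, and the offset of 16 shrinks their folds.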
